A study of Mus musculus with 4 samples.

Results

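The expression of 10 mouse genes of lysosomal proteolysis was examined in immune cells of MC38 tumours. They are the cathepsins Ctsb, Ctsl, Ctss, Ctsk, Ctsc, Ctsz, Ctsw and Ctsd, the asparaginyl endopeptidase legumain (Lgmn) and the secreted inhibitor cystatin C (Cst3). They were taken by gene symbol from the 31253 features of the count matrices, and all 10 were found there. The study set 2 libraries from Ufl1 conditional knockout (cKO) mice beside 2 libraries from wild-type (WT) mice. Each library held CD45+ cells sorted from subcutaneous tumours at day 16, after 100000 MC38 colon carcinoma cells had been injected into mice 8 weeks old. The tumours were digested with collagenase, and the cells were frozen and thawed before droplet capture. The series title places the loss of Ufl1, an E3 ligase that attaches the ubiquitin-like protein UFM1, in T cells. The Cre driver and the deleted exons are not given in the sources used here, nor whether each library came from 1 animal. The p-values of cKO against WT therefore measure the spread between these libraries, which may not be that between animals.

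Cathepsins are made as inactive proenzymes, carried to endosomes and lysosomes largely by mannose 6-phosphate receptors, and activated there by acid and by other proteases. In macrophages and dendritic cells they digest engulfed protein and prepare antigen and the invariant chain for MHC class II, whereas in cytotoxic lymphocytes cathepsin C activates the granzymes. Cystatin C is secreted and blocks cysteine cathepsins, and a separate site of it blocks legumain.

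The genes' 5' flanks are shown first, because a lysosomal gene network is known to be driven through an E-box motif bound by TFEB and its relatives. RefSeq (GRCm38.p6) held 9 promoter entries for 8 of the 10 genes, all but Ctsb and Ctsw, and the 250 bases before the RefSeq start were read from each. RefSeq starts differ in part from the GENCODE gene ends given with each member further on. The Ctsl window and that of 1 Lgmn start lie wholly inside the GENCODE gene. Those of Ctsd, Cst3 and the other Lgmn start overlap theirs in part. The E-box core CACGTG, which reads the same on both strands, was present 2 times in the Ctsd window and 1 time in that of Ctsl. It was present 1 time in the Lgmn window that lies wholly inside the gene, and in 6.02% of 32851 mouse promoters. A core bound by the myeloid factor PU.1, GAGGAAG or CTTCCTC on the other strand, was present 2 times in Ctsk, 2 times in Ctsc and in 10.6% of promoters. The Ctsd window is printed because it held the E-box 2 times, the second time inside the GENCODE gene. Those of Ctsk and Ctss are printed because these neighbours on chromosome 3 lie 17423 bases apart and had opposite abundance. All are 5' to 3' on the gene's strand in lower case, with motif matches in capitals.
Ctsd, chr7:142387828-142388077, minus strand: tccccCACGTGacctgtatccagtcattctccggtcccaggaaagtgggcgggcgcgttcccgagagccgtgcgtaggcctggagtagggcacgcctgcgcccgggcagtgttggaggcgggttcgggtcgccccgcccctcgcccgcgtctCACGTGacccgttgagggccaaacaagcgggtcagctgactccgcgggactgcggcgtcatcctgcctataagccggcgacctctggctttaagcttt
Ctsk, chr3:95498960-95499209, plus strand: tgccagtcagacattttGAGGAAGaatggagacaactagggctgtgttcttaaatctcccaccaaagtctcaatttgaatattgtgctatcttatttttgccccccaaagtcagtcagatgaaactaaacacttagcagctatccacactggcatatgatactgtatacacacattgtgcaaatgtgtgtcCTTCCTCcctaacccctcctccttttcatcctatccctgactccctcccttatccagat
Ctss, chr3:95526536-95526785, plus strand: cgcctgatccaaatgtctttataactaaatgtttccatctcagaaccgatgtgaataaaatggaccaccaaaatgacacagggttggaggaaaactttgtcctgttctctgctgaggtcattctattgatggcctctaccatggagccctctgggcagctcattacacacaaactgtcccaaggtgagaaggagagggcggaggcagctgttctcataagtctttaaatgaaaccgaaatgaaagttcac
A match is a run of letters in the window, not evidence that a factor binds there.

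The libraries held 64141857 to 79747752 unique molecular identifiers (UMIs), and 32396 of 32801 barcodes passed the filters on genes detected (300 or more) and on mitochondrial UMIs (15% or fewer). Marker genes that include none of the 10 members assigned 21401 cells (66.1%) to 16 cell gates, and 14 gates with at least 20 cells in every library were tested. Levels are in CPM, the UMIs summed over the cells of a gate in a library and scaled to one fixed total for every gate and library. Markers not used for gating supported most names: the summed level of 4 T cell genes was 755 to 1787 CPM in the CD8, CD4 and regulatory T gates and at most 15.2 CPM in the myeloid gates, and that of Tcf4 and Bst2 was 4244 to 4957 CPM in the plasmacytoid DC gate. The gate chosen on Cd209a gave mixed values. Its DC genes Flt3, Zbtb46, Irf8 and Ccl22 summed to 203 to 254 CPM, against 211 to 250.1 CPM in classical monocytes and 1373 to 1537 CPM in cDC1. Flt3 alone was at 62.3% to 75.5% of the cDC1 level, against 4.66% to 10.5% in classical monocytes, and Lyz2 was at 243 to 686 CPM, against 11244 to 11609 CPM. It is called the Cd209a+ gate here, after the gene that chose it. The B gate held RNA of genes listed for other cells. Its macrophage genes Apoe, Lyz2, Ms4a7, Pf4 and Trem2 summed to 1002 to 1786 CPM and its T cell genes to 177 to 349 CPM. These macrophage genes do not separate macrophages (10748 to 13094 CPM) from classical monocytes (12192 to 12975 CPM). Whether the RNA in the B gate came from other cells was not tested. Tumour and stroma genes (Epcam, Krt8, Krt18, Col1a1 and Col3a1) summed to at most 51.4 CPM in any gate. Library cKO 2 stood apart in sex-linked genes, with Xist at 297 CPM against 0.126 to 0.906 CPM in the other libraries. Ddx3y was 0.151 CPM in cKO 2, against 47.4 to 51.0 CPM in the others. This sex-linked difference lies within the cKO group, and its part in the cKO against WT results was not tested. Of 31879 barcode strings, 902 (2.83%) occurred in more than 1 library.

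The targeted gene was not lower in cKO. Ufl1 was 17.1 and 18.8 CPM in the cKO libraries, against 16.4 and 16.2 CPM in the WT libraries over all kept cells. In the CD8 T gate Ufl1 was 14.5 and 16.4 CPM in cKO, against 14.6 and 16.2 CPM in WT. Where the deleted exons lie relative to the counted reads is not known here, so these levels do not check the genotype.

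**Figure D1:**
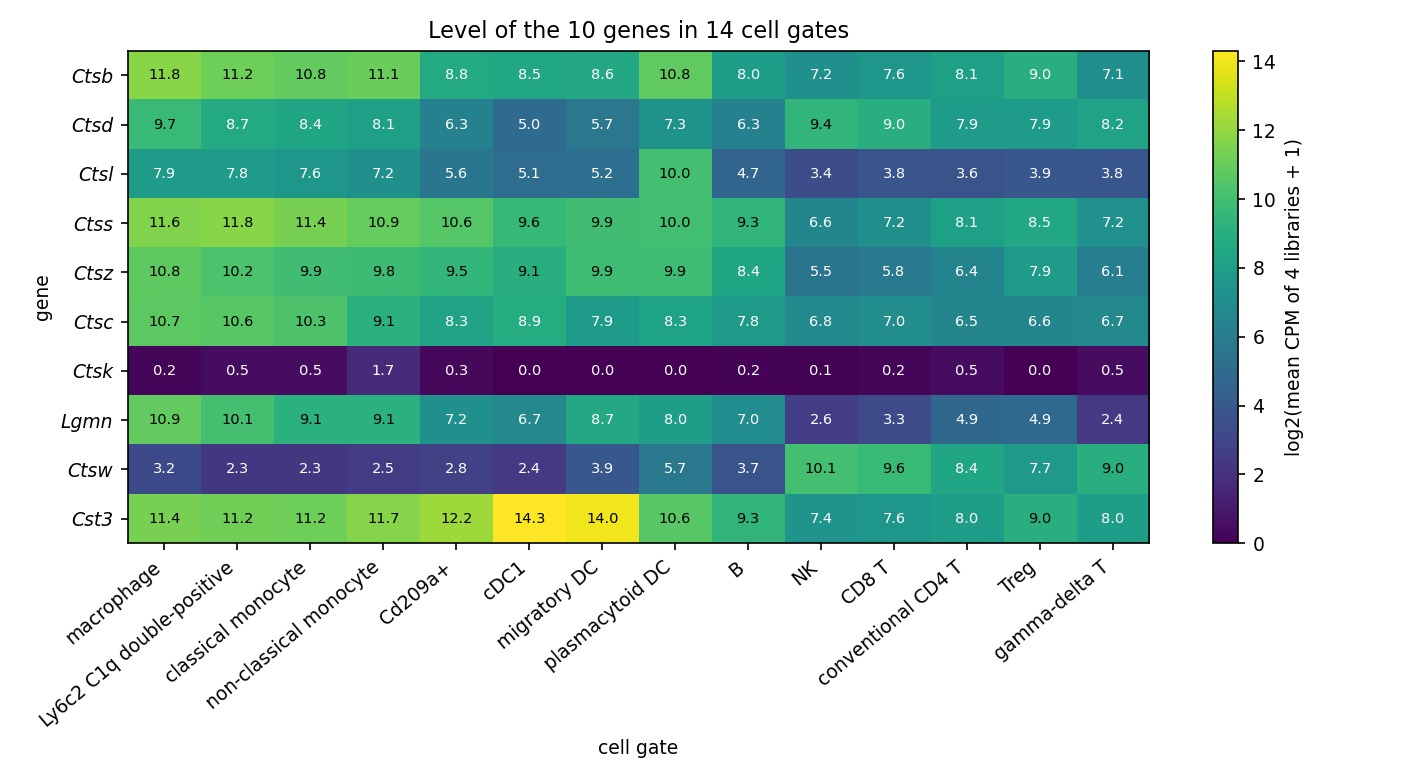
Mean level of each gene (rows) in each of 14 cell gates (columns), as log2 of mean CPM over the 4 libraries plus 1; numbers in the cells are these values. Ctsb, Ctss, Ctsz, Ctsc and Lgmn are brightest in the macrophage and monocyte gates on the left, Ctsw in the lymphocyte gates on the right, Cst3 in cDC1 and migratory DC, and Ctsk is the lowest of the 10 genes in each of them.

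Cathepsin B, a cysteine endopeptidase that also trims dipeptides from C termini, was highest in macrophages. Ctsb (chr14:63122462-63145923, plus strand, GRCm38) was 3734 and 3822 CPM in the cKO libraries, against 3032 and 3252 CPM in the WT libraries. In classical monocytes Ctsb was 1985 and 1839 CPM in cKO, against 1908 and 1625 CPM in WT. All 4 macrophage values lay above all 4 monocyte values. In cells that carried both Ly6c2 or Chil3 and C1q RNA, the double-positive gate, Ctsb was 2356.5 and 2536 CPM in cKO, against 2127 and 2098 CPM in WT, between the other gates. Doublets of a macrophage and a monocyte would fall in this gate and were not removed; its median depth was 11227 to 13921 UMIs per cell, against 4914 to 5106 in macrophages and 8924 to 11124 in classical monocytes, and their part in its levels was not tested. Plasmacytoid DC, with 1694 to 1902 CPM, overlapped the classical monocytes, and every other DC or lymphoid gate averaged 509 CPM or less.

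Cathepsin S, the endopeptidase that makes the last cuts in the invariant chain and stays active at neutral pH, followed another order. Ctss (chr3:95526786-95556403, plus strand) was highest in the double-positive gate, at 3569.7 and 3553 CPM in cKO, against 3346 and 3353 CPM in WT. Macrophages had 3161 and 3221 CPM in cKO, against 2973 and 3265.5 CPM in WT, and classical monocytes 2762 and 2701 CPM in cKO, against 2681 and 2431 CPM in WT. Lower levels followed in non-classical monocytes (1904 to 2048.5 CPM), the Cd209a+ gate (1314 to 1657 CPM), cDC1 (710.5 to 824 CPM), with the lowest in NK cells (81.3 to 105 CPM). The first 6 gates in that order, ending with plasmacytoid DC, had ranges over the 4 libraries that did not touch, whereas plasmacytoid DC, migratory DC, cDC1 and B cells overlapped their neighbours.

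Cathepsin L, an endopeptidase of the same fold known for its part in thymic epithelium and in prohormone cleavage, peaked in plasmacytoid DC. Ctsl (chr13:64359337-64370890, minus strand) was 1304 and 855 CPM in the cKO libraries, against 897 and 1068 CPM in the WT libraries there. The next gates were macrophages, with 205 to 277 CPM, and the double-positive gate, with 212 to 253 CPM. Every plasmacytoid DC library was above every library of any other gate, although this gate held 49, 96, 101 and 99 cells in cKO 1, cKO 2, WT 1 and WT 2. After each cell was thinned to 2000 UMIs, 62.6% to 85.1% of plasmacytoid DC and 26.2% to 35% of macrophages had a Ctsl UMI. The gate accounted for 5.5% to 9.12% of all Ctsl UMIs of a library. NK cells were lowest, at 8.94 to 10.5 CPM.

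Cathepsin K, the collagen-degrading enzyme of osteoclasts, was at the limit of counting. Ctsk (chr3:95499256-95509362, plus strand) had 20 and 33 UMIs in all kept cells of the cKO libraries, against 13 and 23 UMIs in those of the WT libraries, 89 in all. No UMI was counted in cDC1, migratory DC, plasmacytoid DC or regulatory T cells, which, at 3 counts a library, allows levels of up to 1.91 to 7.26 CPM for counting error alone. The highest gate mean, 2.22 CPM in non-classical monocytes, came from 1 UMI in each cKO library. Ctsk was too low for the tests between gates, and in macrophages, where it had 0 to 0.286 CPM, its neighbour Ctss had 2973 to 3265.5 CPM.

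Cathepsin C, the dipeptidyl peptidase that activates granzymes and neutrophil serine proteases, was a myeloid transcript here. Ctsc (chr7:88278085-88310888, plus strand) was 1623 and 1735.5 CPM in cKO, against 1567 and 1649 CPM in WT in macrophages. It was 1660.0 and 1640.1 CPM in cKO, against 1621 and 1357.5 CPM in WT in the double-positive gate and 1299 and 1367 CPM in cKO, against 1294 and 1059 CPM in WT in classical monocytes. The macrophage and double-positive ranges overlapped. In the cytotoxic gates Ctsc was 117 to 153.5 CPM in CD8 T cells and 101 to 118.5 CPM in NK cells, and conventional CD4 T cells were lowest at 82.9 to 95.3 CPM.

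Cathepsin Z, a carboxypeptidase, had the same leading gates without overlap between the first 3. Ctsz (chr2:174427493-174439039, minus strand) was 1864 and 1783 CPM in cKO, against 1641 and 1665 CPM in WT in macrophages, 1275 and 1222 CPM in cKO, against 1155 and 1157 CPM in WT in the double-positive gate and 1009 and 968 CPM in cKO, against 994 and 918 CPM in WT in classical monocytes. Plasmacytoid DC (884 to 987 CPM) and migratory DC (915 to 964 CPM) overlapped the classical monocytes. Among lymphocytes it was highest in the B gate (259 to 407 CPM), which held RNA of genes listed for other cells. Regulatory T cells followed (211 to 254 CPM), without overlap with conventional CD4 (62.9 to 114 CPM), CD8 (45.9 to 65.1 CPM) or NK cells (35.9 to 55.6 CPM). The conventional CD4 and CD8 ranges overlapped, as did those of CD8 and NK cells.

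Legumain, which cuts after asparagine and processes several cathepsins to their 2-chain forms, had the steepest slope along the macrophage and monocyte gates. Lgmn (chr12:102394084-102439813, minus strand) was 1869 and 2014 CPM in the cKO libraries, against 1732 and 1787 CPM in the WT libraries in macrophages. It was 1140.5 and 1111 CPM in cKO, against 1005 and 1089 CPM in WT in the double-positive gate and 569 and 523.5 CPM in cKO, against 627 and 540.1 CPM in WT in classical monocytes. These 3 gates did not overlap. Migratory DC had 335 and 597 CPM in cKO, against 291 and 393 CPM in WT, whereas NK and gamma-delta T cells averaged 5.09 and 4.23 CPM.

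Cathepsin D, the aspartic protease of lysosomes and the only member with that catalytic mechanism, was shared by macrophages and cytotoxic lymphocytes. Ctsd (chr7:142375911-142388038, minus strand) was 939.6 and 893.5 CPM in the cKO libraries, against 742 and 726 CPM in the WT libraries in macrophages. NK cells had 654 and 694 CPM in cKO, against 687.5 and 712 CPM in WT, and CD8 T cells 513 and 499 CPM in cKO, against 520.0 and 469 CPM in WT. Both lymphocyte gates lay above classical monocytes, with 369.7 and 304 CPM in cKO, against 407 and 291 CPM in WT, in every library. The ranges of macrophages, NK cells and CD8 T cells did not overlap, and cDC1 were lowest at 24.1 to 36.9 CPM. Thinned to 2000 UMIs, 68.1% to 73.1% of NK cells, 60.9% to 69.2% of macrophages and 52.1% to 62.2% of CD8 T cells had a Ctsd UMI, and the first 2 of these ranges overlapped.

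Macrophage genes in the NK gate stood at lower shares of their macrophage level than Ctsd did. NK Ctsd was 69.6% to 98.1% of the macrophage level of the same library, whereas Apoe was at 0.188% to 0.288% and Lyz2 at 0.715% to 1.83%. In CD8 T cells Ctsd was 54.6% to 70.1% of the macrophage level and Apoe 0.311% to 0.511%. All 5 macrophage genes together summed to 47.7 to 104 CPM in NK cells, 89.0 to 122 CPM in CD8 T cells and 10748 to 13094 CPM in macrophages. The part of macrophage RNA in these Ctsd levels was not tested.

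Cathepsin W, a papain-family protease known from NK and CD8 T cells, was the lymphoid member. Ctsw (chr19:5465043-5468507, minus strand) was 1036 and 1025 CPM in the cKO libraries, against 1116 and 1070.1 CPM in the WT libraries in NK cells. CD8 T cells had 789 and 777 CPM in cKO, against 857 and 741 CPM in WT, and gamma-delta T cells 610.1 and 321 CPM in cKO, against 519 and 601.5 CPM in WT. Conventional CD4 T cells had 329.6 and 388 CPM in cKO, against 320.4 and 316 CPM in WT, and regulatory T cells 169 and 271 CPM in cKO, against 138 and 265 CPM in WT. NK cells, CD8 T cells and gamma-delta T cells did not overlap, gamma-delta and conventional CD4 T cells did, and regulatory T cells lay below conventional CD4 T cells in all 4 libraries. The share of thinned cells with a Ctsw UMI was 84.6% to 87.4% in NK, 68.4% to 78.2% in CD8 T, 36.8% to 42.5% in conventional CD4 T and 26% to 36.6% in regulatory T cells. In macrophages and classical monocytes, which should lack the gene, it was 0.736% to 2.51% and 0.644% to 1.33%, with median depths of 4914 to 5106 and 8924 to 11124 UMIs per cell, against 5670 to 7914 in NK cells.

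Plasmacytoid DC held a low Ctsw level, above the other tested gates that are not lymphoid. Ctsw was 48.4 and 22.2 CPM in cKO, against 65.0 and 74.8 CPM in WT there, and the next tested gate, migratory DC, had 6.05 to 18.8 CPM. Neutrophils, too few to test, had 31.4 to 82.4 CPM. The plasmacytoid DC level was 2.16% to 6.99% of the NK level. Of 4 cytotoxic genes in the same cells, Nkg7 was at 0.307% to 1.11% of its NK level, Prf1 at 0% to 1.22%, Gzma at 0.0593% to 0.581% and Klrd1 at 43.6% to 52%. After thinning, 2.22% to 14.3% of these cells had a Ctsw UMI.

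Cystatin C was highest in cDC1 and migratory DC. Cst3 (chr2:148871722-148875692, minus strand) was 20921 and 15335 CPM in the cKO libraries, against 22468 and 22462 CPM in the WT libraries in cDC1. Migratory DC had 16483 and 18100.0 CPM in cKO, against 14626 and 17525 CPM in WT. In 3 of 4 libraries cDC1 were above migratory DC, but the ranges overlapped. The Cd209a+ gate had 5438 and 3968 CPM in cKO, against 5620.2 and 4294 CPM in WT, below cDC1 and migratory DC in every library. Macrophages had 2618 and 2481 CPM in cKO, against 2885 and 2504.5 CPM in WT. Plasmacytoid DC were lower than macrophages, at 910 to 2032 CPM. NK cells were lowest at 158 to 181.5 CPM. The cDC1 gate, with 371 cells, held 7.85% to 18.2% of all Cst3 UMIs of a library.

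**Figure D2:**
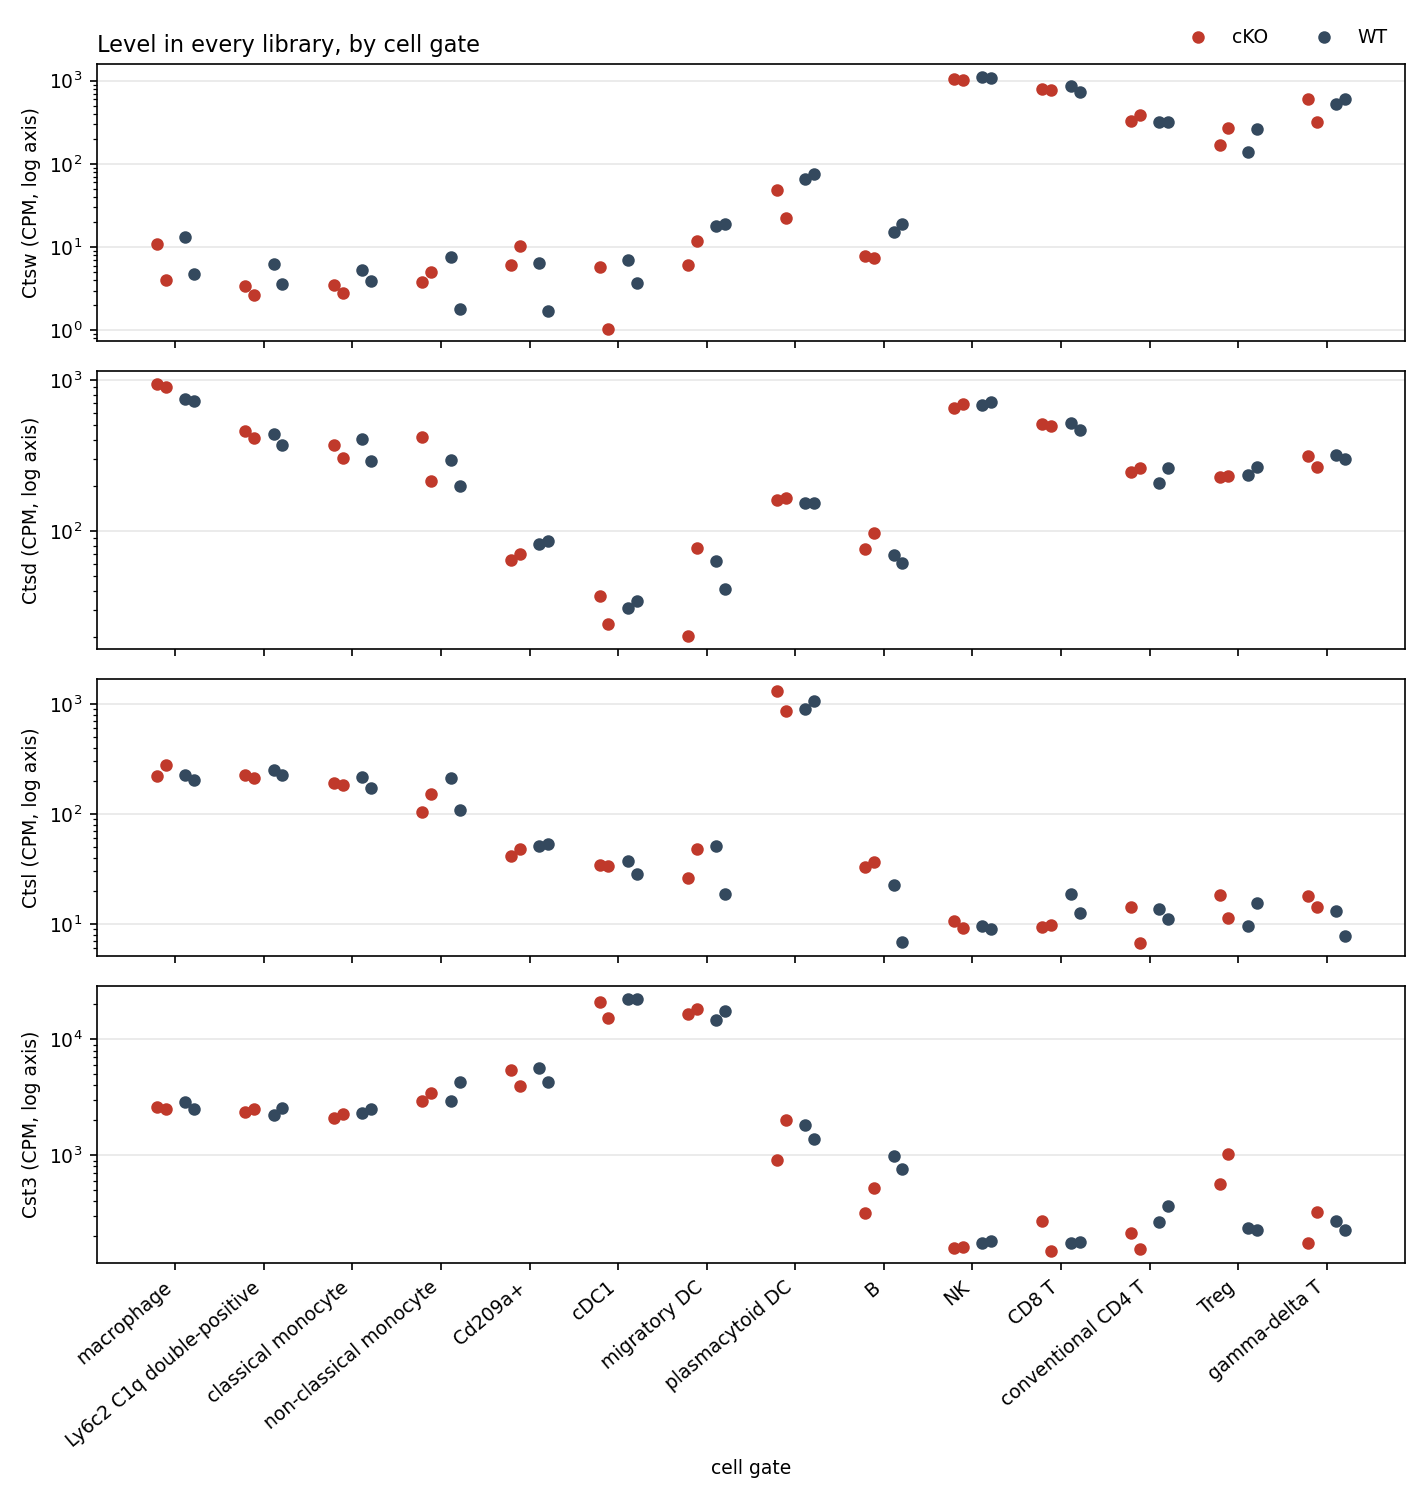
Level of Ctsw, Ctsd, Ctsl and Cst3 in every library (CPM, log axis) by cell gate; red points are the 2 cKO libraries and dark points the 2 WT libraries. Ctsw steps down from NK to regulatory T cells, Ctsd has NK and CD8 T cells beside macrophages, Ctsl stands out in plasmacytoid DC at 855 to 1304 CPM, and in most gates the cKO and WT points lie side by side.

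Within macrophages the members did not move as one. Cells with at least 2 Mmp12 UMIs (428 cells) had Ctsb at 5417 and 6156 CPM in cKO, against 5009 and 5252 CPM in WT. Cells with at least 2 Cx3cr1 and no Mmp12 UMIs (909 cells) had Ctsb at 2882 and 2844 CPM in cKO, against 2316 and 2860.5 CPM in WT. Ctsd was 1105 to 1457 CPM in the Mmp12 cells and 519 to 659 CPM in the Cx3cr1 cells. Both genes, and Ctsz (1933 to 2148 CPM against 1461 to 1701 CPM), were higher in every library of the Mmp12 cells. The reverse held for Ctsc, with 896 to 998 CPM in the Mmp12 cells and 2053 to 2439 CPM in the Cx3cr1 cells, and for Ctss, with 2378 to 2635.5 CPM and 3334 to 3744 CPM. These nested subsets were described and not tested.

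Differences between gates were tested for 10179 genes in 1 fit over the 14 gates, with library as a block, by edgeR's quasi-likelihood test. A call is a Benjamini-Hochberg adjusted p under 0.05 over those genes, 9 members entered, and Ctsk did not. Fold changes are log2, first gate over second, from 4 libraries each. Because all 14 gates share 1 fit, a p-value here does not measure the spread between libraries in the 2 compared gates alone. Ctss, for one, was not called in macrophages (2973 to 3265.5 CPM) over classical monocytes (2431 to 2762 CPM), although these ranges did not touch.

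Macrophages exceeded classical monocytes in 6 of 9 members, and none was lower. In this comparison 65.8% of all genes were called, and 32.4% of all genes were called higher in macrophages. Legumain differed most (Lgmn 1.70 ± 0.18 (SE), adjusted p = 3.74e-12), followed by cathepsin D (Ctsd 1.26 ± 0.14 (SE), adjusted p = 4.94e-11). Ctsb (0.90 ± 0.14), Ctsz (0.83 ± 0.11) and Ctsc (0.38 ± 0.14) were higher with adjusted p of 3.08e-07, 1.11e-08 and 0.0141. Ctsl (0.26 ± 0.14 (SE), adjusted p = 0.0867), Ctss (0.24 ± 0.13 (SE), adjusted p = 0.0903) and Cst3 (0.19 ± 0.27 (SE), adjusted p = 0.546) were not called; without WT 2 Ctsl was (0.39, adjusted p = 0.0225). Ctsw was called (1.03 ± 0.29) at a few CPM in both gates, and not without cKO 1 (0.72, adjusted p = 0.0936). The median over the 9 members was 0.83, against -0.00 over all genes.

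The lysosome around these proteases differed unevenly between the same gates. Of 33 lysosomal hydrolases and activators tested, 19 were higher in macrophages and 5 lower, with a median of 0.45; the 2 with the smallest p were Naglu, which degrades heparan sulfate (2.20 ± 0.15), and the acid lipase Lipa (1.37 ± 0.10). Of 18 membrane and proton pump genes 4 were higher and 5 lower, led by the tetraspanin Cd63 (4.92 ± 0.17) and the pump subunit Atp6v1b2 (-0.83 ± 0.10). Of 8 protease inhibitors 3 were higher and 5 lower, among them Timp2 (3.78 ± 0.13) and Slpi (-6.94 ± 0.27). Of 10 sorting and transcription genes 2 were higher and 6 lower, led by Tfec, a relative of TFEB (-2.65 ± 0.21), and the sorting receptor Sort1 (-2.40 ± 0.30). Of 4 other cathepsins 2 were higher and 1 lower, including the carboxypeptidase Ctsa (0.74 ± 0.11) and the aspartic protease Ctse (-0.61 ± 0.21).

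Against classical monocytes the double-positive gate differed in 2 of 9 members, where 24.3% of all genes were called. Lgmn was higher (0.91 ± 0.17 (SE), adjusted p = 6.17e-05), as was Ctss (0.35 ± 0.13 (SE), adjusted p = 0.0372). The Ctss call was lost without any 1 of the 4 libraries, with adjusted p of 0.0506 to 0.15.

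Against the Cd209a+ gate, cDC1 and migratory DC were both higher in Cst3 and lower in Ctss and Ctsd, and were opposite in Ctsz and Ctsc. In cDC1, 2 members were higher and 4 lower of 9, and 25.1% of all genes were called. Cst3 was higher in cDC1 (2.02 ± 0.28 (SE), adjusted p = 8.93e-08), as was Ctsc (0.48 ± 0.15 (SE), adjusted p = 0.0118), a call lost without cKO 1 (adjusted p = 0.086) or cKO 2 (0.0503). Lower in cDC1 were Ctsd (-1.31 ± 0.21 (SE), adjusted p = 2.24e-06), Ctss (-1.03 ± 0.13 (SE), adjusted p = 1.69e-08), Ctsz (-0.46 ± 0.12 (SE), adjusted p = 0.00223) and Ctsl (-0.58 ± 0.22 (SE), adjusted p = 0.0435). The Ctsl call did not hold without any 1 library, with adjusted p of 0.0577 to 0.237. Among 33 hydrolases 9 were higher and 6 lower, including the palmitoyl thioesterase Ppt1 (3.36 ± 0.14) and the saposin precursor Psap (1.83 ± 0.15).

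Migratory DC were higher in 3 and lower in 3 of 9 members, with 44.7% of all genes called. Higher were Cst3 (1.82 ± 0.27 (SE), adjusted p = 1.98e-07), Lgmn (1.54 ± 0.20 (SE), adjusted p = 7.11e-09) and Ctsz (0.44 ± 0.12 (SE), adjusted p = 0.00191). Ctss was lower (-0.63 ± 0.13 (SE), adjusted p = 8.88e-05). So were Ctsc (-0.42 ± 0.16) and Ctsd (-0.54 ± 0.22), with adjusted p of 0.0276 and 0.0432; both calls were lost without cKO 1, WT 1 or WT 2. Of 33 hydrolases 14 were lower and 4 higher, with a median of -0.73, including the GM2 activator Gm2a (-3.08 ± 0.17) and the mannosidase Man2b1 (-1.91 ± 0.13). In the same cells Cd63 (7.61 ± 0.24), Lamp1 (2.23 ± 0.12) and the granzyme B inhibitor Serpinb9 (6.31 ± 0.29) were higher.

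Plasmacytoid DC were compared after their levels had been seen. Over the Cd209a+ gate 5 of 9 members were higher and 2 lower, with 34.1% of all genes called. Ctsl differed most (4.10 ± 0.18 (SE), adjusted p = 2.35e-25), followed by Ctsw (2.91 ± 0.43 (SE), adjusted p = 1.98e-07) and Ctsb (1.74 ± 0.15 (SE), adjusted p = 9.89e-14). Ctsd (0.75 ± 0.18) and Lgmn (0.54 ± 0.20) were higher with adjusted p of 7.43e-04 and 0.0327, the Lgmn call being lost without WT 1 (adjusted p = 0.316). Cst3 (-1.95 ± 0.28 (SE), adjusted p = 1.03e-07) and Ctss (-0.85 ± 0.13 (SE), adjusted p = 6.06e-07) were lower. Over macrophages, where 58.3% of all genes were called, Ctsl (1.85 ± 0.14 (SE), adjusted p = 4.21e-16) and Ctsw (2.42 ± 0.31 (SE), adjusted p = 2.40e-09) were higher and the other 7 members lower, from Cst3 (-1.07 ± 0.27) to Lgmn (-3.18 ± 0.20). In this gate Lyz2 stood at 3.64% to 92.3% and Apoe at 0.654% to 2.59% of the macrophage level, while Ctsl was 309% to 584% of it. Lyz2 was lower in macrophages than in classical monocytes (-1.655, adjusted p = 3.30e-04), so its share does not tell macrophage from monocyte RNA.

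NK cells differed from CD8 T cells in 3 of 9 members, with 34.2% of all genes called. Ctsd was higher in NK cells (0.53 ± 0.14 (SE), adjusted p = 0.00243) and Ctss lower (-0.52 ± 0.14 (SE), adjusted p = 0.00198). Ctsw was higher (0.49 ± 0.18 (SE), adjusted p = 0.0287), a call lost without cKO 1, WT 1 or WT 2, with adjusted p of 0.0565 to 0.103. Of 18 membrane and pump genes 6 were higher and none lower, including the cholesterol transporter Npc1 (1.21) and Atp6ap1 (0.41). Of 33 hydrolases 12 were higher and 6 lower, and the sulfatase Arsb was among the higher ones (1.99 ± 0.10).

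CD8 T cells were higher than conventional CD4 T cells in 3 members and lower in 4, with 19.2% of all genes called. Ctsw (1.22 ± 0.19 (SE), adjusted p = 2.42e-06), Ctsd (1.04 ± 0.15 (SE), adjusted p = 4.95e-07) and Ctsc (0.53 ± 0.17 (SE), adjusted p = 0.0181) were higher. Lower were Lgmn (-1.60 ± 0.33 (SE), adjusted p = 2.49e-04), Ctss (-0.97 ± 0.14 (SE), adjusted p = 4.38e-07), Ctsz (-0.66 ± 0.15 (SE), adjusted p = 6.70e-04) and Ctsb (-0.54 ± 0.16 (SE), adjusted p = 0.00873). The Ctsc call was lost without cKO 1 (adjusted p = 0.051) or WT 2 (0.137), and the Ctsb call without WT 1 (0.0565). Lgmn was at 0.316% to 0.675% of the macrophage level in CD8 T cells and 0.947% to 2.09% in conventional CD4 T cells. Apoe was at 0.311% to 0.511% and 0.569% to 1.44%, and Lyz2 at 1.28% to 2.39% and 1.75% to 2.08%. The part of macrophage RNA in these differences was not tested. The leukocystatin Cst7, an inhibitor of cathepsin C, was also higher in CD8 T cells (2.05 ± 0.18).

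Regulatory T cells were higher than conventional CD4 T cells in 3 members and lower in 1, with 16.0% of all genes called. Ctsz was higher (1.38 ± 0.15 (SE), adjusted p = 1.67e-10), as was Ctsb (0.74 ± 0.16 (SE), adjusted p = 4.05e-04). In regulatory T cells Ctsb was 445 and 430.1 CPM in cKO, against 633 and 525.5 CPM in WT, and in conventional CD4 T cells 270.4 and 275.5 CPM in cKO, against 322 and 255 CPM in WT. Ctsz was 11.3% to 15.4% of the macrophage level in regulatory T cells, where Apoe was 0.245% to 1.08%. Ctsw was lower (-0.76 ± 0.21 (SE), adjusted p = 0.00773), a call lost without cKO 1 (adjusted p = 0.0853) or WT 1 (0.068). Cst3 was called higher (0.95 ± 0.30 (SE), adjusted p = 0.0202) but not without cKO 1 (adjusted p = 0.127) or cKO 2 (0.17, adjusted p = 0.805). The aminopeptidase cathepsin H, Ctsh (1.27), the receptor M6pr (1.19 ± 0.11), Cst7 (1.56 ± 0.21) and Gm2a (1.12 ± 0.17) were higher as well.

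B cells were higher than conventional CD4 T cells in 6 of 9 members and lower in 2, with 48.6% of all genes called. Lgmn (2.44 ± 0.26), Ctsz (2.24 ± 0.14), Cst3 (1.56 ± 0.29), Ctsl (1.54 ± 0.31), Ctsc (1.52 ± 0.17) and Ctss (1.43 ± 0.14) were higher. Ctsw (-4.74 ± 0.31) and Ctsd (-1.39 ± 0.17) were lower, with adjusted p of 9.31e-19 and 2.44e-09. In the B gate Apoe stood at 5.61% to 6.95% and Lyz2 at 11% to 48% of the macrophage level, where Ctss was at 17.1% to 23.1%, Ctsz at 13.9% to 23% and Ctsb at 5.05% to 10.4%. The part of macrophage or monocyte RNA in these B cell levels was not tested.

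**Figure D3:**
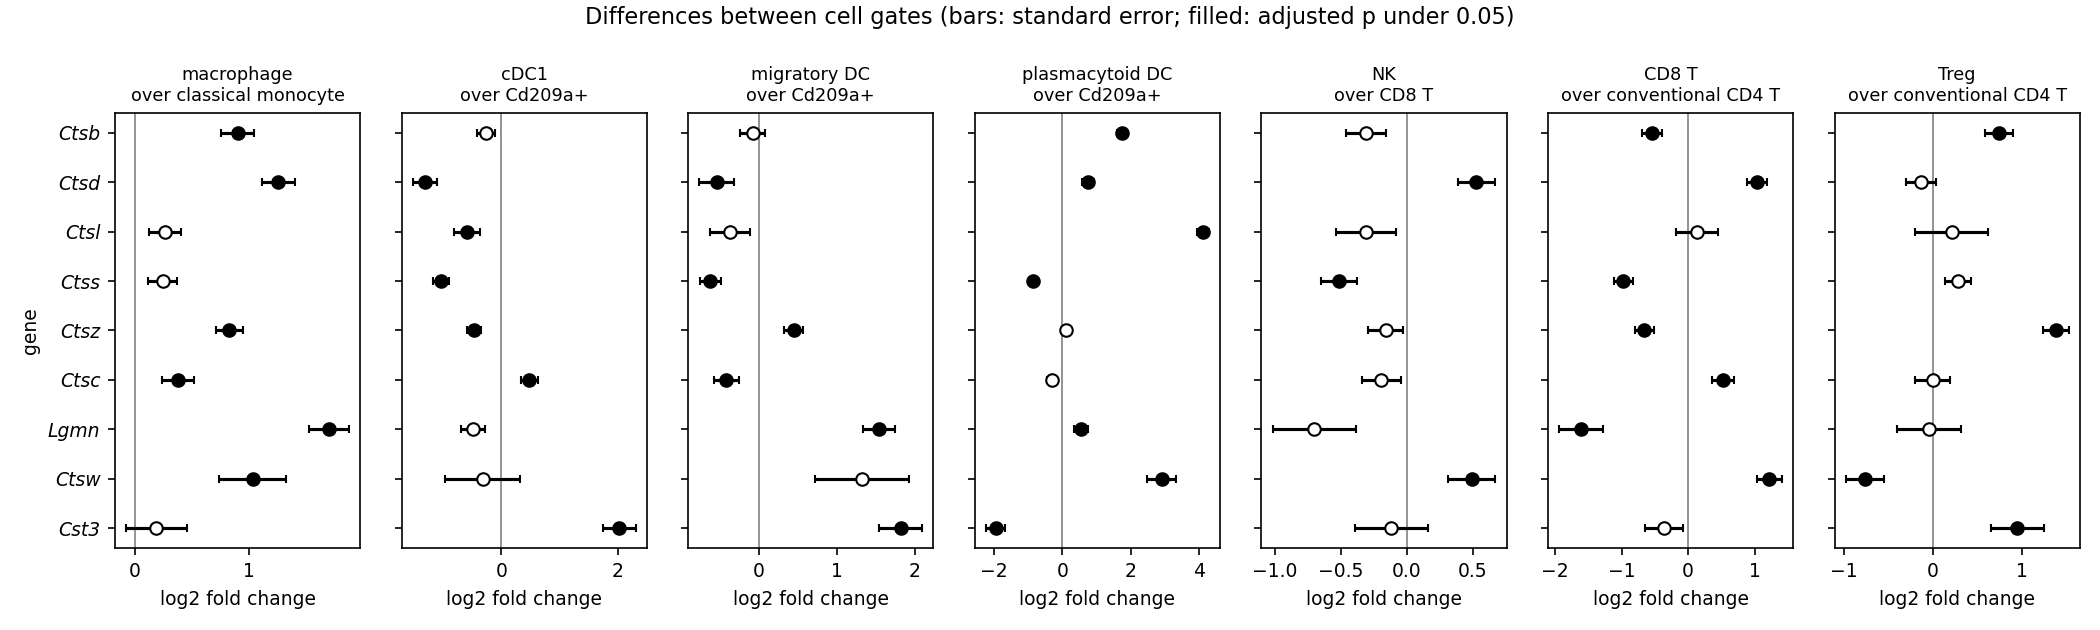
Log2 fold change between pairs of cell gates (first over second) for the 9 tested members; points are estimates from 4 libraries, bars 1 standard error, and filled points have an adjusted p under 0.05. Ctsl at 4.10 and Ctsw at 2.91 in plasmacytoid DC, Cst3 at 2.02 in cDC1 and 1.82 in migratory DC, Lgmn at 1.70 in macrophages and Ctsz at 1.38 in regulatory T cells lie right of 0.

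Across the 14 gate means of log2(CPM + 1), Ctss, Ctsz and Lgmn had like patterns and cathepsin D had another. Pearson's r was 0.971 between Ctss and Lgmn, 0.96 between Ctss and Ctsz and 0.96 between Ctsz and Lgmn. Ctsd had r from -0.616 with Cst3 to 0.411 with Ctsw, and Ctsw had -0.921 with Ctss. These describe gates that share 4 libraries and differ in depth. Among 10109 genes, those most like Ctsw were Sytl3 (0.98), F2r (0.971) and Gnptg (0.963), and those most like Ctsd were Hgsnat (0.917), Cd200r4 (0.887) and Bola2 (0.863). Cst3 was closest to Batf3 (0.981), Shtn1 (0.957) and Lipe (0.955). Ctsb was closest to Hmox1 (0.945), Fth1 (0.944) and P2ry13 (0.935), and Ctsl to P2ry13 (0.975), Ifnar2 (0.955) and Gm5086 (0.952). Ctss led with Rin2 (0.981), Mmp14 (0.981) and Lgmn (0.971), and Lgmn with Ctss (0.971), Mmp14 (0.969) and Lacc1 (0.961). Ctsz was closest to Ctsh (0.972), Gabarap (0.966) and Renbp (0.966), and Ctsc to Sash1 (0.976), Arl11 (0.969) and Tgfbi (0.966).

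The study's own comparison, cKO against WT, gave no member call. Its fits had no term for the sex-linked difference of cKO 2. In the 14 gates 119 member tests were made, each over 2 cKO and 2 WT libraries with edgeR's quasi-likelihood test, and 0 had an adjusted p under 0.05; the smallest was 0.93. An unadjusted p under 0.05 was reached in 12 of them, or 10.1%, and in 2.38% to 5.36% of all genes of a gate. In the background, 0% of genes were called in macrophages, the double-positive gate, classical monocytes, the Cd209a+ gate, cDC1, plasmacytoid DC, B, NK, CD8 T, regulatory T and gamma-delta T cells and in all kept cells together. The called share was 0.0550% in non-classical monocytes (Ccl5 and Bambi), 0.0392% in migratory DC (Oasl1 and Ccl4) and 0.0387% in conventional CD4 T cells (Trav7d-3, Csf2 and H2-Eb1), genes named after their values had been seen. DESeq2 called 0 to 7 genes in a gate.

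In macrophages 8 of 9 members were higher and 1 lower in cKO, with a median log2 fold change of 0.16 against -0.00 over all genes. Ctsd averaged 916 CPM in cKO and 734 CPM in WT libraries, with 0.34 ± 0.13 (SE), an unadjusted p of 0.0285 and a 95% interval of 1.03 to 1.55 fold. Ctsb was 0.28 ± 0.13 with an unadjusted p of 0.0659, and the lower bound of its interval was 0.984 fold. Smaller estimates were those of Ctsl (0.22 ± 0.13), Ctsz (0.16 ± 0.13), Lgmn (0.16 ± 0.13), Ctsc (0.08 ± 0.13), Ctsw (0.05 ± 0.53), Ctss (0.05 ± 0.14) and Cst3 (-0.06 ± 0.14). In Ctsb, Ctsd, Ctsz and Lgmn both cKO values lay above both WT values. Of all genes in this gate 28.0% had groups that did not overlap in one direction or the other, against these 4 of 9. Leaving out 1 library at a time moved Ctsd between 0.25 and 0.42 and Ctsb between 0.20 and 0.36, and neither was called.

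In classical monocytes 4 members were higher and 5 lower in cKO, with a median of -0.05. The estimates were 0.18 ± 0.14 for Ctsc, 0.11 ± 0.15 for Ctsb, 0.09 ± 0.15 for Ctss and 0.04 ± 0.13 for Ctsz, and -0.05 ± 0.17 for Ctsd, -0.06 ± 0.13 for Ctsl, -0.10 ± 0.13 for Lgmn, -0.15 ± 0.16 for Cst3 and -0.55 ± 0.25 for Ctsw. Groups did not overlap in 4 of 9 members (Cst3, Ctss, Ctsc and Ctsw) and in 31.6% of all genes. In the double-positive gate they did not overlap in 7 of 9 members and in 30.5% of all genes. The difference of the cKO effect between macrophages and classical monocytes was 0.38 ± 0.15 for Ctsd (unadjusted p = 0.0286), 0.25 ± 0.12 for Lgmn, 0.27 ± 0.15 for Ctsl and 0.17 ± 0.12 for Ctsb, with an adjusted p of 1 for every member. In that test 0.00878% of 11390 genes, Cxcl1 alone, were called.

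Ctsw was not called in NK cells or in CD8 T cells, the second of which the title places among the deleted cells. In NK cells its cKO values (mean 1030 CPM) lay below its WT values (mean 1093 CPM) without overlap, whereas in CD8 T cells the groups overlapped. Ctsw was -0.15 ± 0.13 in NK cells, with an interval of 0.738 to 1.10 fold, and -0.12 ± 0.14 in CD8 T cells, with 0.732 to 1.16 fold. In conventional CD4 T cells 2 members were higher and 7 lower, with a median of -0.18. Unadjusted p values under 0.05 fell there on Cst3 (-0.79 ± 0.21), Lgmn (-0.83 ± 0.30), Ctsz (-0.59 ± 0.19) and Ctss (-0.38 ± 0.15), each with an adjusted p of 1.00. These 4 genes are high in macrophages, although Cst3 was higher in cDC1 (mean 20296 CPM against 2622 CPM). Ctsb, Ctsc and Ctsd, with means of 3460, 1644 and 825 CPM in macrophages, did not reach an unadjusted p under 0.05 here. The 5 macrophage genes summed to 107 to 157 CPM in conventional CD4 T cells of cKO against 162 to 193 CPM in those of WT. The part of macrophage RNA in the result was not tested. In CD8 T cells Ctsl was 9.47 and 9.81 CPM in cKO, against 18.6 and 12.7 CPM in WT (-0.73 ± 0.30), and it was the 1 of 9 members without overlap, where 33.8% of all genes had none. In NK cells 6 of 9 members did not overlap, against 33.5% of all genes, and Ctsz was 43.6 and 35.9 CPM in cKO, against 45.8 and 55.6 CPM in WT (-0.39 ± 0.17).

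The remaining unadjusted p values under 0.05 were in plasmacytoid DC, where Ctsw was 48.4 and 22.2 CPM in cKO, against 65.0 and 74.8 CPM in WT (-1.10 ± 0.37), and in B cells. In B cells Ctsl was 1.27 ± 0.46, Ctsw -1.08 ± 0.44 and Cst3 -0.98 ± 0.31. Without cKO 1 the plasmacytoid DC Ctsw difference was -1.65 with an adjusted p of 7.86e-04, the only library whose removal made a call there.

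**Figure D4:**
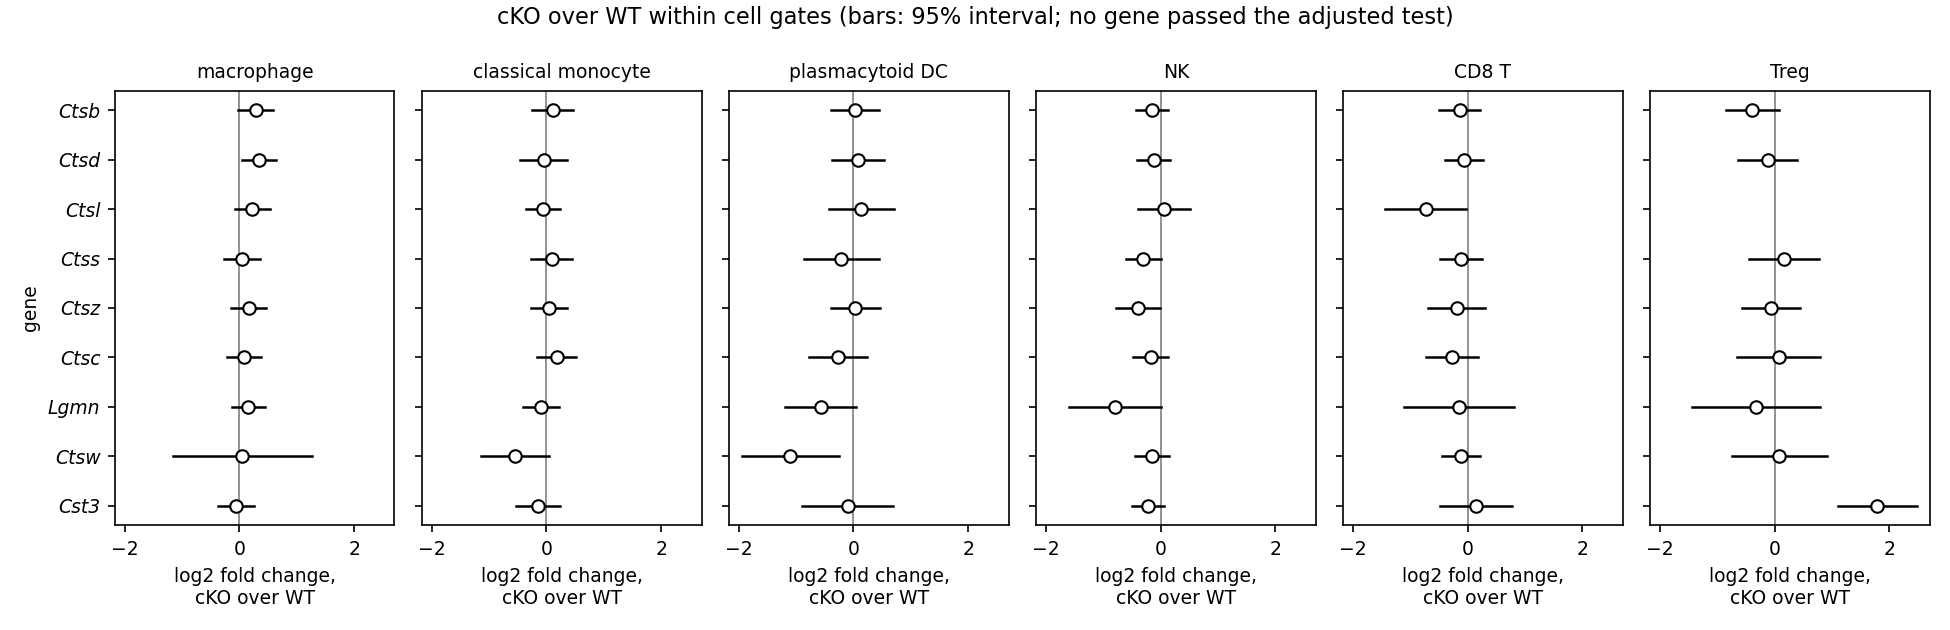
Log2 fold change of cKO over WT for the 9 tested members in 6 cell gates; points are estimates from 2 cKO and 2 WT libraries and bars 95% intervals. Nearly all intervals cross 0, the macrophage points other than Cst3 lie right of 0, and Cst3 in regulatory T cells stands alone at 1.79.

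The largest cKO against WT difference of any member, Cst3 in regulatory T cells, rested in part on single cells. Cst3 was 565 and 1031 CPM in cKO, against 238 and 226 CPM in WT, a log2 fold change of 1.79 ± 0.30 with an unadjusted p of 2.59e-04, an adjusted p of 1.00 and an interval of 2.14 to 5.59 fold. The single cell richest in Cst3 held 46.8% and 36.2% of this gate's Cst3 UMIs in cKO 1 and cKO 2, against 10.0% and 15.4% in WT 1 and WT 2. Without that cell of each library the levels were 308 and 678 CPM in cKO, against 225 and 194.5 CPM in WT, and the fold change was 1.24. Cst3 was at 1% to 6.72% of the cDC1 level in these cells. Of 6 cDC1 genes, Clec9a was at 0% of it, Xcr1 at 0% to 1.64% and Naaa at 0.152% to 2.95%, whereas Wdfy4, at 0% to 9.57%, Flt3, at 0% to 14.8%, and Irf8, at 10.4% to 15.8%, reached shares above that of Cst3. Their part in the result was not tested. The Cst3 difference of regulatory T cells was called by DESeq2 (adjusted p = 6.83e-04), with a replicate block (0.00985), without cKO 1 (0.0373) and without WT 1 (8.99e-07), as was that of conventional CD4 T cells with the block (0.0483), without cKO 1 (0.00726) and without WT 1 (0.00483).

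The same count in B cells moved the other way. The richest cell held 7.76% and 5.50% of Cst3 UMIs in B cells of cKO, against 55.0% and 42.5% in those of WT, and the fold change was -0.98 with all cells and -0.13 without them. In conventional CD4 T cells the richest cell held 29.5% and 11.6% in cKO, against 23.0% and 41.4% in WT, and the fold change without it was -0.55. In the edgeR test over all 4 libraries, with the filter on low counts and no replicate block, none of the 3 was called with or without these cells. The cells were singled out after the levels had been seen.

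**Figure D5:**
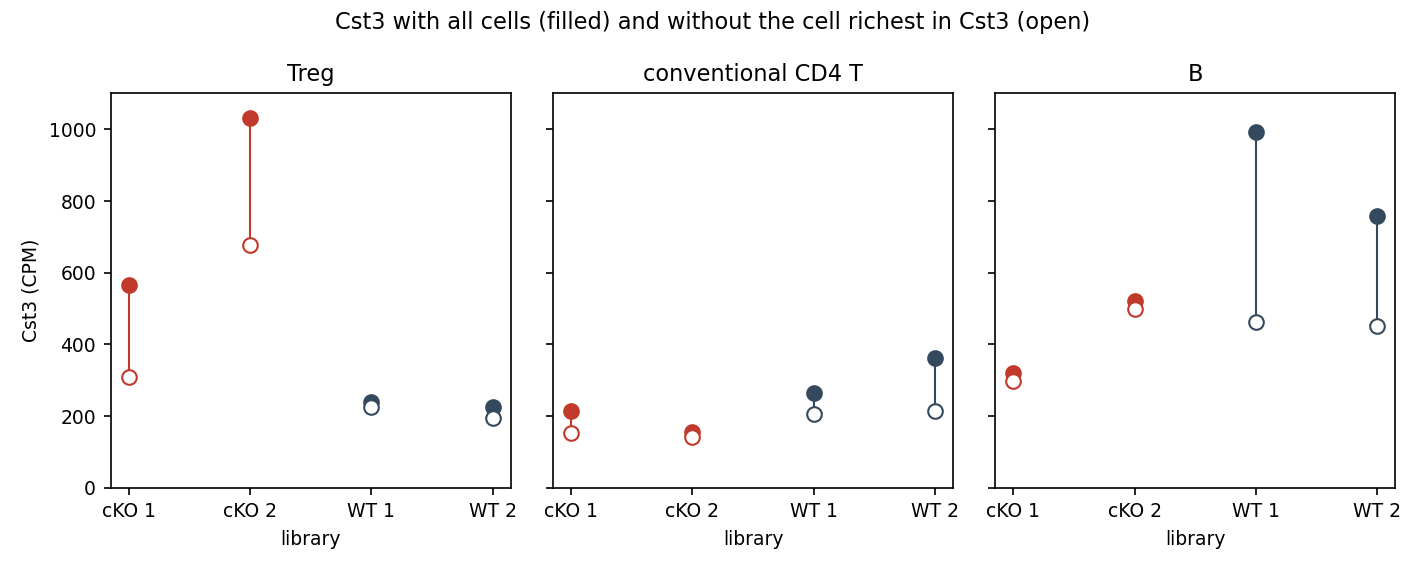
Cst3 level (CPM) in regulatory T, conventional CD4 T and B cells of each library, with all cells (filled) and without the 1 cell richest in Cst3 (open). In regulatory T cells cKO 2 drops to 678 CPM from 1031 CPM and in B cells WT 1 drops to 462.5 CPM from 994 CPM when 1 cell is left out.

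Reads of overlapping genes bound some of these levels. Ctsb overlaps Fdft1, Ctsl Gm47123, Ctsz Nelfcd and Ctsw Fibp on the opposite strand, and Ctsd overlaps Gm49369 on its own strand. Whether counting used the strand is not given in the sources used here, so without it reads of such partners cannot be told apart.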

How the data were processed

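The deposited values are raw counts of UMIs in a gene by barcode matrix for each of 4 libraries, made by the authors with Cell Ranger 6.1.1 per the file headers; CASAVA 1.8 and Seurat appear in the submitters' processing notes. The genome build and the strand of counting are not given in the sources used here. Gene positions come from GENCODE M21 (GRCm38), in which 31107 of 31253 features matched by identifier.

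Barcodes below 300 genes or above 15% mitochondrial UMIs were dropped, and the rest were gated on summed marker UMIs that include no member. The T, NK, macrophage and monocyte gates left out cells with lymphoid, DC or mast markers of another lineage, which removes some doublets of unlike cells. The B, plasmacytoid DC, cDC1, migratory DC and mast/basophil gates excluded each other's markers, T and NK markers and C1q. They did not exclude Csf1r, Adgre1, Fcgr1, Ly6c2 or Chil3, so doublets of their cells with a monocyte can remain. Doublets of a macrophage and a monocyte remain in the double-positive gate. No doublet caller was run. UMIs were summed per library and gate and tested with edgeR 4.0.16 (TMM, filterByExpr, quasi-likelihood, Benjamini-Hochberg; R 4.3.3), cKO against WT without a block, between gates with library as a block. DESeq2 1.42.0 was an alternative. Shares of cells were taken after thinning to 2000 UMIs, which left out 369 of 10196 gated cKO cells and 387 of 11028 gated WT cells in the 14 tested gates. Promoters come from RefSeq. Other alternatives were relative log expression size factors, no filter on low counts, a replicate block, a stricter gate with 1 more UMI, stricter cell filters (500 genes, 10% mitochondrial), cells over 3 times the median UMIs left out, and each library left out in turn.

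The members and lists were chosen with earlier results of these data known. The named genes were all members, fold changes for macrophage and classical monocyte gates, Ctsw in NK and CD8 T cells, any member with an unadjusted p under 0.05, the 3 genes most like each member, and the 2 of each list with the smallest p. Mast/basophil and neutrophil gates had too few cells to test.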

Additional observations from a re-analysis of the deposited data

How the results depend on the processing

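Member values between gates kept their direction and their side of the threshold in 657 of 720 alternatives, and cKO against WT in 323 of 344. The cKO against WT alternatives covered 31 of the 119 member tests, among them every one with an unadjusted p under 0.05. None of the 31 was called in the main test, so an uncalled alternative had only to keep the sign. The cause of the changes was not tested. With 2 libraries a group, counts of genes called between cKO and WT depended on the settings. Without the filter on low counts they were 27 in macrophages, 147 in the double-positive gate, 191 in classical and 8 in non-classical monocytes, 25 in the Cd209a+ gate, 31 in cDC1, 43 in migratory DC, 41 in plasmacytoid DC, 93 in B, 48 in NK, 49 in CD8 T, 47 in conventional CD4 T, 65 in regulatory T and 5 in gamma-delta T cells, and 2 in all kept cells. DESeq2 called 7 in B cells, 7 in the double-positive gate, 4 in NK, 3 in classical monocytes, 1 in regulatory T cells, 17 in all kept cells and 0 in non-classical monocytes. A stricter gate left 0 in migratory DC and 1 in non-classical monocytes, and leaving out cells over 3 times the median UMIs left 0 in migratory DC.

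With a replicate block the counts were 1 in B, 11 in CD8 T, 133 in the double-positive gate, 3 in NK, 14 in regulatory T, 3 in the Cd209a+ gate, 15 in classical and 0 in non-classical monocytes, 19 in conventional CD4 T cells, 2 in macrophages and 1 in all kept cells. The libraries share only a number: same-numbered deviations correlated at -0.0892 to 0.224. Leaving out 1 library gave 2 to 80 in B, 0 to 8 in CD8 T, 0 to 176 in the double-positive gate, 0 to 46 in NK, 0 to 55 in regulatory T, 7 to 32 in conventional CD4 T, 0 to 49 in gamma-delta T cells, 3 to 32 in cDC1, 9 to 56 in the Cd209a+ gate, 17 to 44 in migratory DC, 0 to 170 in plasmacytoid DC, 0 to 11 in classical and 8 to 18 in non-classical monocytes, 1 to 258 in macrophages and 0 to 50 in all kept cells. It gave 1490 to 2106 for the double-positive gate over classical monocytes, 1070 to 1681 for CD8 T over conventional CD4 T cells and 0 to 70 for the difference of effect.

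Cst3 was called in regulatory T cells under DESeq2 (adjusted p = 6.83e-04), without the filter (4.49e-08), with the replicate block (0.00985), without cKO 1 (0.0373) and without WT 1 (8.99e-07), and in conventional CD4 T cells without the filter (0.00653), with the block (0.0483), without cKO 1 (0.00726) and without WT 1 (0.00483). Ctsl (0.0373) and Ctss (0.0283) were called higher in macrophages than in classical monocytes with relative log expression size factors, as was Ctsl without WT 2 (0.0225). Other calls gained between gates were Ctsz in the double-positive gate without cells of high UMIs (0.0471); Lgmn in cDC1 without the filter (0.00448), with a stricter gate (0.0231) and without cKO 1 (0.0183); in migratory DC, Ctsl without cells of high UMIs (0.0056) and Ctsw without the filter (0.0074) and without cKO 2 (0.0361); in NK cells, Ctsb without cKO 2 (0.031) and Lgmn without the filter (0.00861); and Cst3 in CD8 T cells without the filter (0.0203).

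Values that changed sign were uncalled on both sides, except for Ctsb in B cells, which was called lower without cKO 2. Leaving out 1 library, cKO over WT ran from -0.0444 to 0.14 for Ctss, -1.08 to 0.82 for Ctsw and -0.15 to 0.0185 for Cst3 in macrophages, and from -0.22 to 0.14 for Ctsd and -0.16 to 0.049 for Ctsl in classical monocytes; the difference of effect ran from -0.16 to 0.0672 for Ctss, -0.26 to 0.0492 for Ctsc, -0.32 to 1.04 for Ctsw and -0.11 to 0.27 for Cst3. Between gates it ran from -0.12 to 0.0543 for Ctsw in the double-positive gate, -0.51 to 0.11 for Ctsw in cDC1, -0.14 to 0.0734 for Ctsb in migratory DC, -0.20 to 0.10 for Cst3 in NK cells, -0.14 to 0.14 for Ctsc and -0.29 to 0.12 for Lgmn in regulatory T cells, and -0.34 to 0.28 for Ctsb in B cells (adjusted p = 0.0387 without cKO 2). Ctsw in macrophages was -0.12 under DESeq2, -0.22 with the replicate block and -0.19 with a stricter gate. In the double-positive gate Ctsw was 0.00087 with relative log expression size factors and 0.0647 without cells of high UMIs, and Cst3 was -0.004 without the filter. In regulatory T cells Ctsc was 0.0215, 0.0117 and 0.00788 under relative log expression size factors, the stricter gate and the removal of high-UMI cells, and Lgmn 0.28 and 0.00489 under the last 2 of these.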

Other observations

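The 2 gates too small to test also held members, given here as values. Mast cells and basophils, 13 to 45 cells in a library, had Ctsd at 724 and 548 CPM in cKO, against 508 and 494 CPM in WT, above classical monocytes of the same libraries, and Ctsc at 359.5 and 681 CPM in cKO, against 203 and 282 CPM in WT. Neutrophils, 5 to 27 cells in a library, had Ctsb at 2553.5 and 627 CPM in cKO, against 2468.5 and 596 CPM in WT and Ctsd at 1318 and 729 CPM in cKO, against 617 and 659 CPM in WT.

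Of the genes around the members, none was called between cKO and WT in macrophages, NK cells or CD8 T cells. In macrophages 22 of 34 lysosomal hydrolases and activators tested were higher and 12 lower in cKO, with a median log2 fold change of 0.10 against -0.00 over all genes. In NK cells 12 were higher and 22 lower of 34, with a median of -0.12, and in CD8 T cells 11 were higher and 22 lower of 33, with a median of -0.11. Of 19 membrane and proton pump genes in macrophages 14 were higher and 5 lower.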
